A study of Rattus norvegicus with 8 samples.

Results

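The DNA replication genes described here are 50 genes whose products prepare, unwind, copy and package DNA in S phase. They were chosen by name and known role, with earlier results of these data known. All 50 were found among the 23487 genes of the deposited table by their symbol. The filter on low counts kept 12124 genes for testing, and 49 of the 50 were among them. The exception was Hells, a chromatin remodelling ATPase of the SNF2 family, which was listed at 0 counts in all 8 rats and could not be tested.

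The study compared peritoneal macrophages from rats given carbon nanotubes of different shape. Female Wistar rats, 8 weeks old, received an intraperitoneal injection of the same mass of either CNT-7 (MWCNT-XNRI-7), which is needle-like and mesotheliomagenic, or CNT-T, which is tangled and is not. After 15 days the macrophages were isolated by flow cytometry cell sorting and their mRNA was sequenced, with 1 library per rat. There were 4 rats in each group, numbered 3, 5, 10 and 11 for CNT-7 and 1, 2, 12 and 13 for CNT-T. All 8 rats carried particles, and no library came from an untreated rat, so each difference is between CNT-7 and CNT-T and has no unexposed level beside it. A fall or a rise below means a lower or a higher level after CNT-7 than after CNT-T. The totals were between 27195157 and 33732981 counts per rat. At these depths, 3 counts corresponded to 0.0887 to 0.109 CPM (counts scaled to a library total of 1000000 after TMM normalisation), a floor that covers counting error only. The lowest count of any gene among the 49 tested was 57, for Tipin.

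The macrophage markers were abundant in every rat. Of 10 markers listed, 9 were in the table and none of the 9 was at 0 in any rat (Itgam was not analysed here). Their summed level was 15512 to 22446 CPM in the CNT-7 rats and 24316 to 34431 CPM in the CNT-T rats, most of it from Lyz2, which was not called (log2 fold change -0.47). Between the groups, Adgre1 (log2 fold change -1.13), Cd163 (-1.69), Fcgr1a (-0.54), Cd68 (-0.34) and Csf1r (-0.33) were lower and Cd14 (0.46) was higher after CNT-7 at the threshold given below, while Mrc1 (0.58) and Mertk (0.076) were not called. The marker sets of other cell types are given after the results by rat.

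Replication starts with licensing, in which the origin recognition complex, Cdc6 and Cdt1 load the MCM helicase on DNA in G1. In S phase, Cdc45 and the GINS complex turn the loaded helicase into an active one, primase and the DNA polymerases copy both strands, and a sliding clamp, nucleases and a ligase complete the lagging strand. Many of these genes are transcribed under E2F factors shortly before S phase, and large resident macrophages of the peritoneal cavity are known to renew themselves by local division.

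All 49 replication genes tested were lower after CNT-7 and 0 were higher. A gene was called when its p in the quasi-likelihood test of edgeR, adjusted by Benjamini-Hochberg over all 12124 genes, was under 0.10. By that rule 14.0% of all genes tested were lower and 13.9% were higher. Since the list was chosen with earlier results of these data known, no test was made over the list. The median log2 fold change (CNT-7 over CNT-T) of the 49 was -1.08, a level 2.12-fold lower, and that of all genes tested was 0.0083. The values ran from -1.38 for Tk1 to -0.56 for Rpa3, and all 49 lay in the lowest 10% of all genes, whose values are below -0.51. In 45 of the 49 each CNT-7 rat was below each CNT-T rat, which held for 12.6% of all genes tested. The groups overlapped in Gmnn, Mcm3, Rfc5 and Tipin. A fall of at least 2-fold was found in 31 of the 49, and in 3.74% of all genes tested. That number depended on CNT-7 rat 10, the rat with the lowest levels, and was 14 without it, namely Orc1, Mcm5, Mcm10, Cdc45, Pole, Pole2, Pold1, Dscc1, Fen1, Lig1, Tk1, Dut, Chaf1a and Clspn. These are sorted cell populations measured in bulk, so fewer cells in S phase and less replication mRNA in each cell cannot be told apart.

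**Figure D1:**
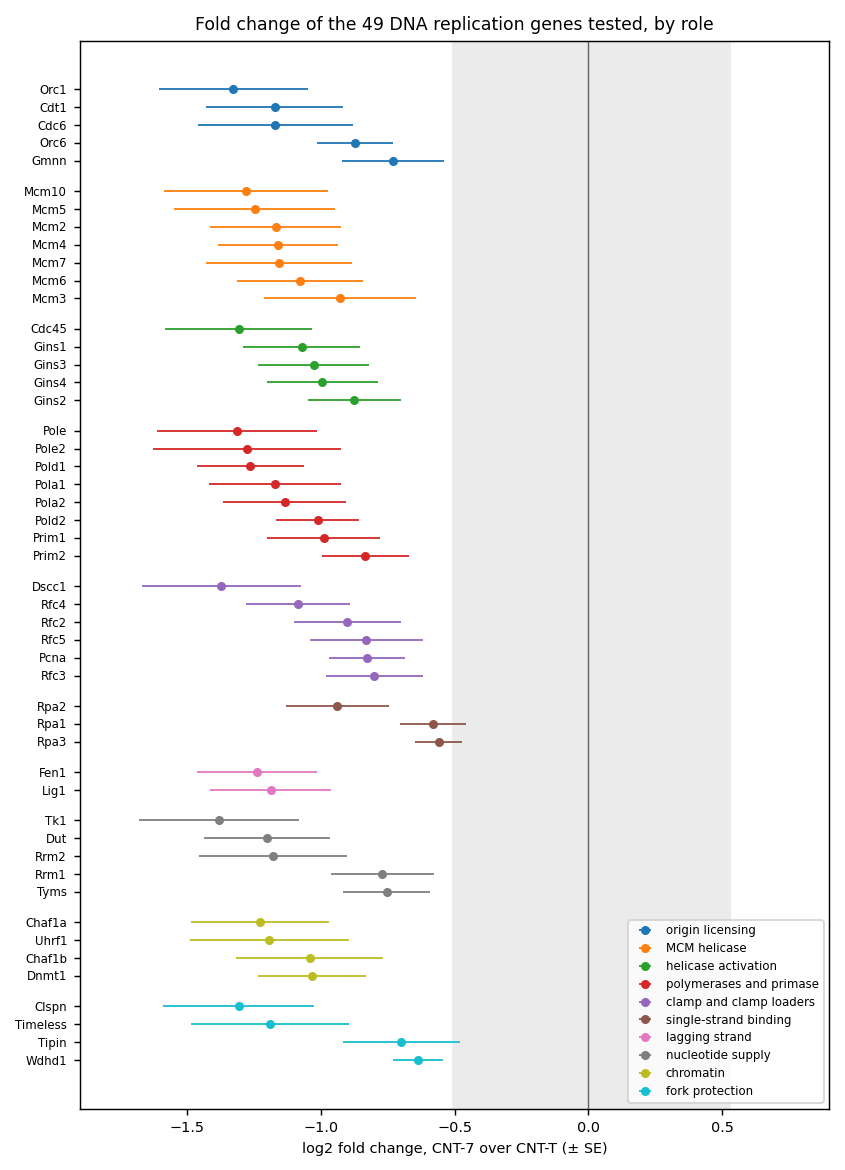
Log2 fold change, CNT-7 over CNT-T (horizontal axis, points with bars of ± 1 SE from edgeR, 4 rats in each group) for the 49 DNA replication genes tested, coloured by role. The grey band spans from the value below which the lowest 10% of all 12124 genes lie (-0.51) to the value above which the highest 10% lie (0.53), and all 49 points sit to the left of it, from Tk1 (-1.38) to Rpa3 (-0.56).

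Origin licensing came first in the order of events, and its 5 genes were all lower, with a median log2 fold change of -1.17. In this and the following paragraphs, values per rat are in the order CNT-7 rats 3, 5, 10 and 11, then CNT-T rats 1, 2, 12 and 13. Orc1, the largest subunit of the origin recognition complex, measured 6.64, 5.13, 3.18 and 9.41 CPM in the CNT-7 rats and 12.5, 17.3, 16.8 and 14.5 CPM in the CNT-T rats. No CNT-7 rat reached the lowest CNT-T rat, and the log2 fold change was -1.33 ± 0.28 (adjusted p = 0.00897). Cdc6 (-1.17), the ATPase that joins the origin recognition complex to load the helicase, and Cdt1 (-1.17), its partner in loading, fell by similar amounts, and Orc6, another subunit of the complex, had a log2 fold change of -0.87. Gmnn encodes geminin, which binds Cdt1 and prevents a repeat of licensing within a cell cycle. It had the smallest fall of the group, with 46.0, 40.6, 29.0 and 55.5 CPM after CNT-7 and 53.5, 74.0, 79.1 and 77.2 CPM after CNT-T. CNT-7 rat 11 was above CNT-T rat 1, the lowest of its group, so the groups overlapped, and the log2 fold change was -0.73 ± 0.19 (adjusted p = 0.0237).

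The MCM genes encode the ring that unwinds DNA, made of Mcm2 to Mcm7, and Mcm10, which joins the helicase when it is activated. All 7 were lower, with a median log2 fold change of -1.16, and 6 of them by at least 2-fold (2 without CNT-7 rat 10). Mcm10 had the largest fall, with 19.3, 14.9, 8.99 and 30.0 CPM in the CNT-7 rats and 33.1, 45.8, 49.6 and 48.8 CPM in the CNT-T rats. The groups did not overlap, although CNT-7 rat 11 came close to CNT-T rat 1, and the log2 fold change was -1.28 ± 0.31 (adjusted p = 0.0163). The ring subunits Mcm5 (-1.25), Mcm2 (-1.17), Mcm4 (-1.16), Mcm7 (-1.16) and Mcm6 (-1.08) lay within a narrow range. Mcm3 differed least, with 86.3, 65.9, 42.9 and 128 CPM after CNT-7 and 120.1, 176, 170.4 and 148 CPM after CNT-T. CNT-7 rat 11 was above CNT-T rat 1, and the log2 fold change of -0.93 ± 0.28 was nevertheless called (adjusted p = 0.0450). Without CNT-7 rat 5, CNT-T rat 2 or CNT-T rat 12, Mcm3 was no longer called, with adjusted p-values of 0.118, 0.109 and 0.106.

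Cdc45 and the 4 GINS subunits, which bind the MCM ring to form the active helicase, were also all lower (median log2 fold change -1.03). Cdc45 measured 13.4, 8.34, 5.71 and 14.9 CPM in the CNT-7 rats and 19.5, 28.9, 29.6 and 26.8 CPM in the CNT-T rats. The highest CNT-7 rat was below the lowest CNT-T rat, with a log2 fold change of -1.31 ± 0.27 (adjusted p = 0.00911). Within GINS, whose subunits occur in equal number in the complex, Gins1 (-1.07), Gins3 (-1.03) and Gins4 (-0.99) were followed by Gins2. Gins2 stood at 13, 9.15, 9.82 and 16.3 CPM in the CNT-7 rats and 19.2, 23.5, 22.8 and 22.9 CPM in the CNT-T rats. Here CNT-7 rat 5, not rat 10, was lowest, the groups did not overlap, and the log2 fold change was -0.87 ± 0.17 (adjusted p = 0.00716).

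The polymerase and primase genes were all lower, 6 of 8 by at least 2-fold (3 without CNT-7 rat 10), with a median log2 fold change of -1.15. Pole, the catalytic subunit of polymerase epsilon, which extends the leading strand, measured 22.9, 18.3, 9.21 and 32.1 CPM after CNT-7 and 43.6, 52.5, 57.2 and 51.7 CPM after CNT-T. All 4 CNT-7 rats were lower than all 4 CNT-T rats, and CNT-7 rat 10 was far below the other CNT-7 rats. The log2 fold change was -1.31 ± 0.30 (adjusted p = 0.0127). Its partner Pole2 (-1.28), the polymerase delta genes Pold1 (-1.26) and Pold2 (-1.01), which serve mainly the lagging strand, and the polymerase alpha genes Pola1 (-1.17) and Pola2 (-1.13), which extend the RNA primers, were lower by at least 2-fold. Prim1 and Prim2 encode the primase that makes those primers, and Prim1 had a log2 fold change of -0.99. Prim2 had the smallest fall of the 8, with 16.1, 12.5, 12.6 and 19.8 CPM in the CNT-7 rats and 22.6, 30.6, 25.6 and 30.0 CPM in the CNT-T rats. These groups did not overlap either, and the log2 fold change was -0.83 ± 0.16 (adjusted p = 0.00678).

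Among the clamp and clamp loader genes the falls were smaller, with a median log2 fold change of -0.87 and 2 of 6 lower by at least 2-fold (1 without CNT-7 rat 10). The largest was that of Dscc1, a subunit of the alternative loader that acts in sister chromatid cohesion. It measured 6.5, 3.99, 3.14 and 8.72 CPM in the CNT-7 rats and 11.4, 12.8, 17.8 and 15.8 CPM in the CNT-T rats. Every CNT-7 rat was lower than every CNT-T rat, with a log2 fold change of -1.37 ± 0.30 (adjusted p = 0.0102). Pcna, the sliding clamp itself, had a log2 fold change of -0.83, and Rfc4 (-1.08), Rfc2 (-0.90) and Rfc5 (-0.83), subunits of the loader RFC, fell by as much or more. In Rfc5 the highest CNT-7 rat (24.5 CPM, rat 11) was just above the lowest CNT-T rat (24.4 CPM, rat 1). Rfc3, also of RFC, fell least, with 20.2, 16.2, 13 and 24.8 CPM after CNT-7 and 27.5, 35.2, 34.7 and 31.7 CPM after CNT-T. Its groups did not overlap, and the log2 fold change was -0.80 ± 0.18 (adjusted p = 0.0123).

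The genes of RPA, the trimer that covers exposed DNA strands in replication and also in repair, had the smallest median fall of the 10 roles (log2 fold change -0.58), and none of the 3 reached a 2-fold fall. Rpa2 measured 19.8, 16.8, 12.5 and 23.3 CPM in the CNT-7 rats against 26.2, 40.5, 37.6 and 34.7 CPM in the CNT-T rats. The groups were separate, with a log2 fold change of -0.94 ± 0.19 (adjusted p = 0.00817). Rpa1, the largest subunit and the main DNA-binding one, had a log2 fold change of -0.58. Rpa3, the smallest subunit, differed least of all 49 genes, with 21.1, 19.8, 21.1 and 23.5 CPM in the CNT-7 rats and 28.2, 34.9, 31.6 and 31.1 CPM in the CNT-T rats. The CNT-7 rats lay close together, all below the CNT-T rats, so that this small fall (-0.56 ± 0.088) had a low adjusted p of 0.00254. How Rpa1 and Rpa3 compared with Rpa2 was not tested.

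Fen1 and Lig1 finish the lagging strand, Fen1 as the nuclease that trims the flap at the end of each fragment and Lig1 as the ligase that joins the fragments. Fen1 measured 28.7, 22.9, 15.9 and 38.6 CPM after CNT-7 and 54.9, 65.6, 65.6 and 64.1 CPM after CNT-T. Lig1 measured 68.2, 55.6, 41.6 and 98.6 CPM after CNT-7 and 126, 161, 160.4 and 153 CPM after CNT-T. Both were below every CNT-T rat in every CNT-7 rat. The log2 fold changes were -1.24 ± 0.22 for Fen1 (adjusted p = 0.00468) and -1.19 ± 0.23 for Lig1 (adjusted p = 0.00595).

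Nucleotide supply held the largest fall of the 49 genes. Tk1, the cytosolic thymidine kinase made in S phase, measured 56.4, 40.5, 23.0 and 78.8 CPM in the CNT-7 rats and 123, 142, 127 and 125 CPM in the CNT-T rats. The groups were well apart, although the CNT-7 rats were widely spread, and the log2 fold change was -1.38 ± 0.30 (adjusted p = 0.0103). Dut (-1.20), which removes dUTP, and Rrm2 (-1.18), the small subunit of ribonucleotide reductase, were also lower by at least 2-fold, and its large subunit Rrm1 had a log2 fold change of -0.77. Tyms, which makes dTMP from dUMP, fell least, with 50.0, 36.6, 33.5 and 57.2 CPM after CNT-7 and 64.2, 81.4, 77.4 and 76.0 CPM after CNT-T. No CNT-7 rat reached the CNT-T rats, and the log2 fold change was -0.75 ± 0.16 (adjusted p = 0.0103).

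The 4 chromatin genes tested were all lower by at least 2-fold, and without CNT-7 rat 10 only Chaf1a was. Chaf1a, the large subunit of the chromatin assembly factor that places histones on new DNA, measured 23.2, 17.3, 11.8 and 33.0 CPM in the CNT-7 rats and 46.1, 55.1, 46.7 and 51.6 CPM in the CNT-T rats. The groups did not overlap, and the log2 fold change was -1.23 ± 0.26 (adjusted p = 0.00911). Its partner Chaf1b (-1.04) and Uhrf1 (-1.19), which recruits the maintenance methyltransferase to newly made DNA, were between Chaf1a and Dnmt1. Dnmt1, that methyltransferase, measured 79.2, 66.9, 47.8 and 106 CPM after CNT-7 and 146, 163, 162 and 144 CPM after CNT-T. The CNT-7 rats were again all below the CNT-T rats, with a log2 fold change of -1.03 ± 0.20 (adjusted p = 0.00665). Hells, the fifth gene of this role, was listed at 0 CPM in every rat. For Hells, as for the markers listed at 0 in all rats, the table does not show whether the mRNA was absent or the estimate for that gene failed.

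Of the 4 genes that protect or stabilise the fork, Clspn fell most. Clspn encodes claspin, an adaptor of the checkpoint kinase Chk1 that travels with the fork, and it measured 20.3, 12.8, 7.69 and 23.3 CPM in the CNT-7 rats and 36.5, 43.1, 39.5 and 39.7 CPM in the CNT-T rats. The groups were separate, with a log2 fold change of -1.31 ± 0.28 (adjusted p = 0.0100). Timeless (-1.19) and Tipin (-0.70) encode partners in the fork protection complex. Tipin had few counts, CNT-7 rat 11 (3.62 CPM) was above CNT-T rat 2 (3.37 CPM), and its adjusted p of 0.05 was the highest of the 49. Tipin was not called without CNT-7 rat 3, 5 or 10 or CNT-T rat 12 or 13, with adjusted p-values from 0.112 to 0.120. Wdhd1, which couples the helicase to polymerase alpha, measured 52.3, 48.2, 43.9 and 56.2 CPM after CNT-7 and 68.9, 80.3, 79.7 and 83.1 CPM after CNT-T. It fell least of the 4 (-0.64 ± 0.092) but had the lowest adjusted p of all 49 genes, 0.00178, since the rats of each group lay close together.

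The CNT-7 rats differed among themselves in these genes, and in nearly the same order each time. CNT-7 rat 11 was the highest of its group in 49 of 49 genes and CNT-7 rat 10 the lowest in 46, and in 43 genes the order from low to high was rat 10, rat 5, rat 3 and rat 11. Relative to the mean of the CNT-T rats, the median difference in log2 CPM over the 49 genes was -0.95 in CNT-7 rat 3, -1.36 in rat 5, -1.83 in rat 10 and -0.55 in rat 11. In the CNT-T rats it was -0.23 in rat 1, 0.13 in rat 2, 0.077 in rat 12 and 0.030 in rat 13. Thus the highest CNT-7 rat was below the lowest CNT-T rat, and the distance from CNT-7 rat 11 to rat 10 was larger than that from rat 11 to the CNT-T rats. CNT-T rat 1 was the lowest of its group in 46 of the 49 genes. The 49 values of a rat come from the same library, so they do not count as separate observations of that rat.

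**Figure D2:**
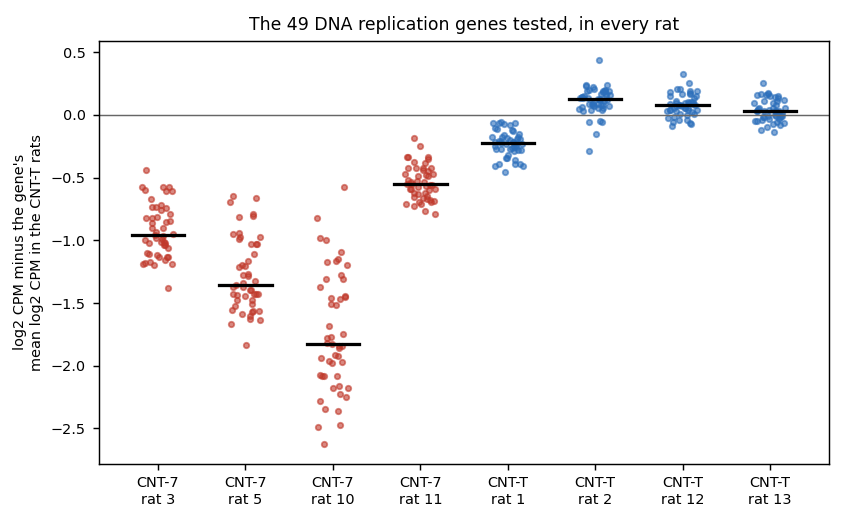
Each point is 1 of the 49 DNA replication genes tested, drawn as its log2 CPM in that rat minus its mean log2 CPM over the 4 CNT-T rats (vertical axis), with a black line at the median of each rat. The medians of the CNT-7 rats run from -1.83 (rat 10) to -0.55 (rat 11) and those of the CNT-T rats from -0.23 (rat 1) to 0.13 (rat 2).

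The spread between rats was therefore wider after CNT-7. The median SD of log2 CPM within a group (0.1 CPM added) was 0.53 for the replication genes in the CNT-7 rats and 0.16 in the CNT-T rats. Over all 12124 genes the median was 0.16 in both groups. The SD was larger in the CNT-7 rats for 48 of 49 replication genes (98.0%), and for 6230 of the 12124 genes (51.4%). The exception was Rpa3, in which the CNT-7 rats lay between 19.8 and 23.5 CPM.

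Marker sets of other cell types were low in all 8 rats, and some varied with the rat. T cell markers summed to 3.75 to 12.2 CPM and B cell markers (4 of 5 in the table, without Cd79a, which was not analysed here) to at most 2.78 CPM, both highest in CNT-7 rat 5. The T cell set was led by Lck in 7 rats and by Cd2 in CNT-7 rat 10, and Cd2 measured 1.38 to 3.43 CPM after CNT-7 and 0.0978 to 0.297 CPM, near the floor, after CNT-T. Cd3e reached at most 2.11 CPM and Pax5 was at 0 in all rats but CNT-7 rat 5. The NK cell set had the same order as the replication genes in the CNT-7 rats. It summed to 17.8, 11.3, 6.36 and 42.1 CPM in CNT-7 rats 3, 5, 10 and 11 and to 26.4, 26.2, 31.4 and 23.3 CPM in CNT-T rats 1, 2, 12 and 13. In every rat most of it came from Klrk1 (3.72 CPM in CNT-7 rat 10, its lowest value), while Gzmb and Klrb1 were at 0 in every rat and Ncr1 did not exceed 2.35 CPM. Neutrophil markers summed to 24.9 to 68.0 CPM, most of it Csf3r, with Mpo at 0 in every rat. S100a8, of the same set, was lower after CNT-7 (log2 fold change -1.46, adjusted p = 0.0159), with 1.34 to 3.25 CPM in the CNT-7 rats and 4.19 to 9.03 CPM in the CNT-T rats, which did not overlap, while Csf3r (0.39) and S100a9 (1.23) were not called. Dendritic cell markers summed to 4.37 to 11.6 CPM, led by Zbtb46. Ccr7, of that set, measured 0.398 to 3.15 CPM after CNT-7 and at most 0.266 CPM after CNT-T, and Clec9a 0.615 to 1.98 CPM and 0.148 to 0.560 CPM. Mast cell markers (at most 2.34 CPM, led by Cpa3 or Cma1) and mesothelial markers (at most 0.838 CPM, mainly Krt8, with Upk3b and Wt1 at 0) were lower still. Eosinophil markers reached 9.33 CPM in CNT-7 rat 3, almost all Ccr3, and at most 0.67 CPM elsewhere, with Epx and Prg3 at 0. Erythroid markers (4 genes) summed to 0.923 to 22.5 CPM and were led by Hbb in all rats but CNT-T rat 12. The part of any of these cell types in the fall of the replication genes was not tested.

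Partner genes of the same complex, or an inhibitor and its target, were compared within each rat as 8 pairs, since a ratio within a library does not depend on the scaling between libraries. The 8 rats can be divided into groups of 4 in 70 ways, so the exact two-sided permutation test can give no p below 0.0286. After Benjamini-Hochberg adjustment over the 8 pairs, 0 passed 0.10, also 0 had an unadjusted p under 0.05, and the groups overlapped in each of the 8. The lowest p-values belonged to Rrm2 over Rrm1 and Gmnn over Cdt1. The log2 ratio of Rrm2 to Rrm1 was -2.79, -2.83, -2.79 and -2.29 in the CNT-7 rats and -2.14, -2.31, -2.28 and -2.07 in the CNT-T rats. CNT-7 rat 11 lay among the CNT-T rats, and the difference was -0.48 (exact permutation p = 0.0571, adjusted p = 0.183). The log2 ratio of Gmnn to Cdt1 was 1.41, 1.57, 1.81 and 1.26 in the CNT-7 rats and 0.68, 0.84, 1.23 and 1.26 in the CNT-T rats. CNT-7 rat 11 again overlapped with the CNT-T rats, and the difference was 0.51 (exact permutation p = 0.0571, adjusted p = 0.183). The differences were 0.59 for Tipin over Timeless, 0.29 for Pold2 over Pold1 and 0.18 for Chaf1b over Chaf1a (exact permutation p = 0.114 for each). For Prim2 over Prim1 the difference was 0.16, for Pola2 over Pola1 0.057 and for Pole2 over Pole 0.0083, with exact permutation p-values of 0.286, 0.6 and 0.914.

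Other genes of replication, listed by role and not among the 50, were mostly lower or not called. Of 33 listed, 32 were in the table (Dna2 was not analysed here) and all 32 were tested. Of these, 20 were lower, 2 were higher and 10 were not called, with a median log2 fold change of -0.47, against 14.0% lower and 13.9% higher among all genes tested. Esco2, the acetyltransferase that closes cohesin rings in S phase, fell most. It measured 12.9, 9.55, 8.16 and 17.2 CPM in the CNT-7 rats and 33.0, 29.9, 39.0 and 44.0 CPM in the CNT-T rats. The groups were far apart, with a log2 fold change of -1.61 ± 0.22 (adjusted p = 0.00146). With Esco2, the 8 lower by at least 2-fold were Recql4 (-1.46) and Ticrr (-1.28), which act in helicase activation, Atad5 (-1.44), which unloads Pcna, the histone chaperone Asf1b (-1.29), Dtl (-1.29), which directs the destruction of Cdt1 in S phase, the kinase Cdc7 (-1.06) and the clamp loader subunit Chtf18 (-1.02). Among all genes tested, 3.74% were lower by at least 2-fold. Without CNT-7 rat 10 the number was 6, and Cdc7 and Chtf18 were not among them.

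Subunits of the origin recognition complex differed in their calls. Orc1 and Orc6 fell, as given above, while Orc2 (-0.23), Orc3 (-0.19), Orc4 (0.086) and Orc5 (-0.017) were not called, and the difference between these sets of subunits was not tested. Subunits of polymerase delta were called in both directions. Pold1, Pold2 and Pold3 (-0.38) were lower, but Pold4, its smallest subunit, was higher. Pold4 measured 34.2, 32.9, 37.2 and 29.5 CPM in the CNT-7 rats and 22.9, 19.98, 22.7 and 17.8 CPM in the CNT-T rats. Every CNT-7 rat was above every CNT-T rat, with a log2 fold change of 0.68 ± 0.11 (adjusted p = 0.00237). The other gene called higher was Mtbp (0.36, adjusted p = 0.0837), a partner of Ticrr, whose groups overlapped and which was called in only 6 of 14 alternative fits. The remaining genes not called were Mcm8 (-0.83, adjusted p = 0.107, called in 4 of 14 alternative fits), Mcm9 (-0.11), Donson (-0.19), Chtf8 (-0.062), Rnaseh2a (-0.03) and Top1 (-0.091).

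Of 9 other nucleotide supply genes analysed, 4 were lower, 1 was higher and 4 were not called, and the rest of that list was not analysed here. The shares over all genes tested were 14.0% lower and 13.9% higher. Dctpp1, a pyrophosphatase that clears unwanted dCTP forms, measured 6.41, 3.82, 3.76 and 8.25 CPM after CNT-7 and 11.2, 14.6, 13.8 and 11.8 CPM after CNT-T. These groups did not overlap (-1.21 ± 0.25, adjusted p = 0.00821). Samhd1, which breaks dNTPs down, went the other way, with 96.8, 93.6, 80.3 and 177 CPM in the CNT-7 rats and 48.1, 52.2, 55.4 and 39.8 CPM in the CNT-T rats. The lowest CNT-7 rat exceeded the highest CNT-T rat, with rat 11 far above the rest, and the log2 fold change was 1.20 ± 0.23 (adjusted p = 0.00662). Shmt1 (-0.75), Dtymk (-0.72) and Dck (-0.63) were also lower. Rrm2b (0.23), the ribonucleotide reductase subunit used outside S phase, and the mitochondrial kinases Tk2 (0.055) and Dguok (0.044) were not called, nor was Cmpk1 (-0.056).

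**Figure D3:**
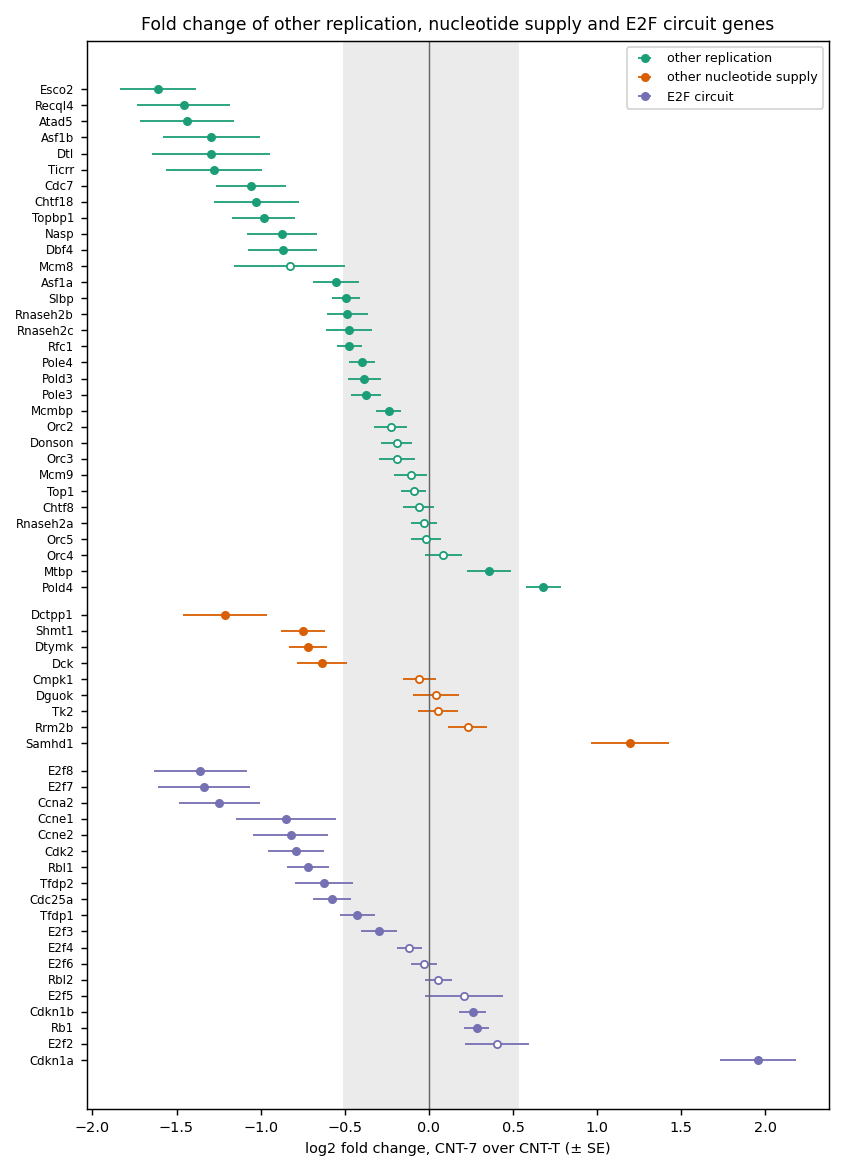
Log2 fold change, CNT-7 over CNT-T (horizontal axis, points with bars of ± 1 SE from edgeR, 4 rats in each group) for 32 other replication genes, 9 other nucleotide supply genes and 19 genes of the E2F circuit, with filled points for genes called and open points for genes not called. The grey band is bounded by the lowest and the highest 10% of all genes tested (-0.51 and 0.53). The points run from Esco2 (-1.61) to Cdkn1a (1.95).

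Among the regulators that control the entry into S phase, 11 of 19 E2F circuit genes were lower, 3 were higher and 5 were not called, with a median log2 fold change of -0.43 (E2f1 was not analysed here). Among all genes tested, 14.0% were lower and 13.9% higher, and the calls of E2f3, Ccne1 and Cdkn1b were lost in some alternative fits. The largest fall was that of E2f8 (-1.36 ± 0.28, adjusted p = 0.00782), a repressive E2F factor that is itself made in S phase. The largest rise was that of Cdkn1a, which encodes the CDK inhibitor p21, a protein that also binds Pcna. Cdkn1a measured 77.6, 98.3, 69.98 and 134 CPM in the CNT-7 rats and 24.6, 30.0, 17.4 and 26.0 CPM in the CNT-T rats. The groups were far apart, with a log2 fold change of 1.95 ± 0.23 (adjusted p = 0.000635). CNT-7 rat 11, in which the replication genes were highest within its group, also had the highest Cdkn1a, and CNT-7 rat 10 had the lowest of both.

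The replication genes fell together with genes of mitosis. All 22 mitosis genes listed were lower, from Top2a (-1.68 ± 0.22, adjusted p = 0.00107) to Aurka (-0.51 ± 0.12, adjusted p = 0.0142), with a median of -1.20. Of the 22, 19 were lower by at least 2-fold (15 without CNT-7 rat 10). Over all genes tested, 14.0% were lower and 3.74% were lower by at least 2-fold. By rat, the median difference of the 22 from the mean of the CNT-T rats was -1.11 in CNT-7 rat 3, -1.53 in rat 5, -1.78 in rat 10 and -0.69 in rat 11, the order that the replication genes had. Among the CNT-T rats it was -0.010 in rat 1, -0.13 in rat 2, 0.014 in rat 12 and 0.11 in rat 13. CNT-T rat 2 thus had the lowest mitosis median of its group but the highest replication median (0.13), and rat 1 had the lowest replication median (-0.23).

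Since the replication genes fell together, their promoters were searched for the motif of E2F factors, as the letters TTTCCCGC, TTTGGCGC, TTTCGCGC or TTTGCCGC on both strands. The windows came from RefSeq (rat assembly GRCr8) and held 250 bases before and 50 bases after each start. Of the 50 replication genes, 43 had a window, and those without were Mcm4, Cdc6, Orc1, Gins4, Rpa3, Rrm2 and Dscc1. A match was found in 22 of the 43 genes (51.2%). Among all genes with a window it was found in 651 of 27457 (2.37%), among genes tested in 396 of 8872 (4.46%), and among genes called lower after CNT-7, which include the replication genes, in 130 of 1313 (9.90%). Other replication genes had a match in 11 of 28 (39.3%) and the mitosis genes in 0 of 20. The median log2 fold change was -1.16 for the 21 tested genes with a match and -1.01 for the 21 without, a difference that was not tested. Hells had a match but no fold change. A match is a description of the letters, and binding was not measured.

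The following stretches before the start of subunit genes of the MCM ring, of Gins1 and of Tyms show how the motif lies in promoters of genes from different steps of replication. They read 5′ to 3′ on the strand of the gene, with matches in capitals. They were chosen after the values were seen, and they hold matches before the start only. In some other genes with a match, among them Lig1, Clspn and Dnmt1, the match lay after the start. Hells, Tipin and Gins3, which are not shown, also had a match before the start, and in Pole the match lay across it. In Mcm2, Mcm5, Mcm6 and Gins1, the capitals cover overlapping matches on both strands. The positions on GRCr8 are chr4:122918095-122918154 (minus strand) for Mcm2, chr19:13488574-13488633 (plus strand) for Mcm5, chr13:42404458-42404517 (minus strand) for Mcm6, chr12:22163197-22163256 (minus strand) for Mcm7, chr3:160184860-160184919 (plus strand) for Gins1 and chr9:120776087-120776146 (minus strand) for Tyms.
Mcm2: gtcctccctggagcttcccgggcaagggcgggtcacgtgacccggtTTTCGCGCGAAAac
Mcm5: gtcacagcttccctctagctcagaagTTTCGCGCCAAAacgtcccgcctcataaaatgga
Mcm6: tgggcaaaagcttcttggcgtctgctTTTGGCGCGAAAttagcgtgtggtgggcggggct
Mcm7: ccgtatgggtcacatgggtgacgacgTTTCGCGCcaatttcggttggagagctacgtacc
Gins1: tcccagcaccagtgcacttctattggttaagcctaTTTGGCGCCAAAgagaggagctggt
Tyms: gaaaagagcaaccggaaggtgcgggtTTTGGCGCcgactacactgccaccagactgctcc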

How the data were processed

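The data are RNA-seq counts of sorted peritoneal macrophages, 1 library for each of 8 rats, and groups and rat numbers came from the sample labels. The authors ran the ARMOR workflow with Salmon on Ensembl cDNA of Rnor_6.0, tximeta and edgeR, with versions not given in the sources used here. The authors deposited expected counts (estimated counts) per gene as whole numbers, without normalisation. Length offsets of tximeta were not available, so a shift in transcript lengths between groups would enter the values. The 50 members and the other gene lists were chosen with earlier results of these data known.

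All genes were fitted in R 4.3.3 with edgeR 4.0.16 and its quasi-likelihood test, with TMM normalisation, the default filter (minimum count 10, minimum total 15) and Benjamini-Hochberg adjustment over the 12124 genes left. Standard errors (SE) are the log2 fold change over the root of the F statistic. Totals were 27195157 to 33732981 counts. Pairs were compared as log2 ratios with 0.5 added to each count, by an exact two-sided permutation test. No pairing of rats or batch is given in the labels. Every member was named, and the largest and the smallest fall of each role are given by rat. For the other lists, the rule named the largest fall and the largest rise, and further genes were named after their values were seen. Marker lists served to check the sort.

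The alternatives were DESeq2 1.42.0, upper-quartile and RLE scaling, no filter, a minimum of 10 counts in every rat, a stricter adjusted p under 0.05, a 2-fold minimum, low or high rat numbers as a covariate, 2 added to each count in the ratios, and each rat left out in turn. Fits were tested on simulated data. No annotation of Rnor_6.0 was at hand, so positions are given for promoter windows only. Flow cytometry and untreated rats were not analysed here.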

Additional observations from a re-analysis of the deposited data

Results flagged for a closer look

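In 98 comparisons of 4 rats (49 genes in each group), the gap between an extreme rat and its nearest neighbour was a large share of the range of its group in 6, whereas chance marks about 1 in 20, or 4.9. All 6 were in CNT-T rats. CNT-T rat 1 was lowest for Orc6 (11.2 CPM against 14.2 to 14.6 CPM, a gap of 0.882 of the range), Gins2 (19.2 against 22.8 to 23.5 CPM, 0.854), Rpa1 (79.7 against 87.3 to 88.0 CPM, 0.924) and Fen1 (54.9 against 64.1 to 65.6 CPM, 0.852). CNT-T rat 2 was highest for Cdt1 (41.2 against 32.3 to 33.7 CPM, 0.836) and Uhrf1 (106 against 88.6 to 89.3 CPM, 0.963). These genes share libraries, so the marks are not independent of each other.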

How the results depend on the processing

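In 14 alternative fits the log2 fold change of all 49 members tested was negative. All 49 were called lower with DESeq2, upper-quartile scaling, RLE scaling, no filter, at least 10 counts in every rat and the rat number range as a covariate, and 47 to 49 with single rats left out. The exceptions were Mcm3 and Tipin, and 47 of the 49 were called in every fit. The cause was not tested, but each of these fits had fewer rats. At an adjusted p under 0.05, 48 of the 49 were lower, without Tipin, whose adjusted p was just above it. The median was lowest without CNT-7 rat 11 (-1.34) and highest without CNT-7 rat 10 (-0.94). The 2-fold minimum left 31 members, 8 other replication genes and 1 other nucleotide supply gene, and the member number was 14 without CNT-7 rat 10 and 38 without CNT-7 rat 11. The ratio of Pole2 to Pole, which was not called, changed sign, from -0.052 to 0.073 over the rats left out.

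The alternatives were planned for the number of other replication and other nucleotide supply genes called lower. Fits of the single genes of these lists, of the E2F circuit genes and of Top2a, Aurka and Mki67 were added after seeing the data. The cell type markers were not refitted. Among the genes refitted, calls were lost in some of the 14 fits for Mtbp (kept in 6), E2f3 (6), Ccne1 (9), Cdkn1b (10) and Mcmbp (12), and gained for Mcm8, Orc2 and E2f2. Signs changed in these, each on removal of a rat, only in genes not called, namely Orc5 (-0.071 to 0.024), Chtf8 (-0.12 to 0.017), Rnaseh2a (-0.074 to 0.014), Tk2 (-0.034 to 0.13), Dguok (-0.042 to 0.15), Cmpk1 (-0.11 to 0.047), E2f6 (-0.078 to 0.022) and Rbl2 (-0.0050 to 0.090). The cause was not tested. Many markers of other cell types did not pass the filter on low counts, and Cd2, Ccr7 and Clec9a passed it with few counts in the CNT-T rats, so their levels alone are given.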
